A study of Homo sapiens with 12 samples.

Results

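The 56 genes described here encode the machinery that attaches chromosomes to the mitotic spindle, separates them and divides the cell. They were chosen by name, as a fixed list of gene symbols matched to the rows of the deposited expression table, a rule that used no measured value. The list was nevertheless drawn up with earlier results of these data known, so its counts are not independent of them. The table held 35337 rows, 13847 genes passed the filter for testing (a mean of at least 5 normalised reads over the libraries), and all 56 listed genes were present and passed it. The members fall into 8 roles. They hold 5 spindle assembly checkpoint genes, 9 of the outer and 7 of the inner kinetochore, and 8 mitotic kinases and passenger complex genes. Added to these are 8 mitotic kinesins, 8 genes of spindle assembly and cytokinesis, and 7 of condensin and the mitotic chromosome. The remaining 4, of the ubiquitin pathway and separase, control the start of anaphase.

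The cells were EndoC-βH3, a human beta-like cell line derived from fetal pancreas and kept dividing by hTERT and the SV40 large T-antigen, both flanked by loxP sites, together with a CreER recombinase. Senescence was induced with 4-hydroxytamoxifen (4-OHT) for 3 weeks, which activates CreER and removes both immortalising genes. Non-senescent controls were given no 4-OHT, carried the same constructs and still had both immortalising genes. Exposure to 4-OHT, loss of the immortalising genes and senescence therefore came together and cannot be told apart here. Poly(A) RNA was read at its 3′ ends by CEL-seq2 in 12 libraries, 6 senescent and 6 non-senescent, of which 2 per group carried the letter A and 4 per group the letter B in their titles. These letters were taken as batches. All libraries came from 1 cell line, and the sources do not state whether replicates were separate cultures, so p-values measure the spread between these libraries, which may be technical.

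The inner kinetochore marks the centromere, the outer kinetochore binds spindle microtubules, and the checkpoint delays anaphase until every chromosome is attached. CDC20 then activates the anaphase-promoting complex, securin is destroyed, separase opens cohesin rings, and kinesins, bundling proteins and the contractile ring complete division. Most of these genes are transcribed in late G2 and mitosis, and cells outside the cycle, such as adult beta cells, hold little of their RNA.

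The promoters of late cell cycle genes are known for a pair of short elements, the CCAAT box bound by NF-Y and the cell cycle homology region (letters TTTGAA) bound by DREAM and MuvB complexes, so the stretches before the start of 8 members are shown. RefSeq promoter windows of the build GRCh38.p14, each of 300 bases from 250 before to 50 after the start, were found for 47 of the 56 members, and AURKA, TTK, CENPM, TPX2, CENPH, BIRC5, UBE2C, BUB3 and KNTC1 were not matched. In 16 of the 47 the RefSeq start was also the outermost start in GENCODE, and the 8 stretches come from these. Each runs 5′ to 3′ on the strand of the gene and ends at the base before the start. Capitals mark CCAAT or its reverse complement ATTGG, and TTTGAA or its reverse complement TTCAAA; where both kinds overlap, the capitals run together. ESPL1, CDC20, MKI67, KIF4A and KIF18A hold both kinds of element, PTTG1 and BUB1 hold CCAAT boxes alone, and CDC25C holds neither in this stretch. Which start the cells use was not measured, so an element absent from a stretch may lie near another start of the gene.
ESPL1, chr12:53268179-53268298, strand +: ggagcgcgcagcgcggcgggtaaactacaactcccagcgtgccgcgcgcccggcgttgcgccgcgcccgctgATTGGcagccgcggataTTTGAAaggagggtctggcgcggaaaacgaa
CDC20, chr1:43358861-43358980, strand +: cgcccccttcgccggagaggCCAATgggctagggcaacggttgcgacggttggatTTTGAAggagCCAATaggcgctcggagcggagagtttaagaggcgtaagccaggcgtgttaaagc
MKI67, chr10:128126424-128126543, strand -: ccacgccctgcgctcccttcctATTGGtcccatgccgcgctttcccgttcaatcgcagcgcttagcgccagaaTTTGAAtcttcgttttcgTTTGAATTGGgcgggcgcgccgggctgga
KIF4A, chrX:70289984-70290103, strand +: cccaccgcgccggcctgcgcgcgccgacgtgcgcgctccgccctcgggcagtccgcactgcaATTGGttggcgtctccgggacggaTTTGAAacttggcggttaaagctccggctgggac
KIF18A, chr11:28108157-28108276, strand -: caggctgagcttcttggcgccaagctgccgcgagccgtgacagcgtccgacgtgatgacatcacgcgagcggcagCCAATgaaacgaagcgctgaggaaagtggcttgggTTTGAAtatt
PTTG1, chr5:160421735-160421854, strand +: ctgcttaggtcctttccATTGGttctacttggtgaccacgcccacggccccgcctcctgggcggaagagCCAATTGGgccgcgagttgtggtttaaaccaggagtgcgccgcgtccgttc
BUB1, chr2:110678064-110678183, strand -: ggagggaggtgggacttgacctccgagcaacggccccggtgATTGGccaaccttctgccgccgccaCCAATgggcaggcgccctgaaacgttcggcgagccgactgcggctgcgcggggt
CDC25C, chr5:138338356-138338475, strand -: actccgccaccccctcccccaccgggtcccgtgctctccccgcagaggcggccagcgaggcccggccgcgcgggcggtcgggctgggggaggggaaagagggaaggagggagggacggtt

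All 56 members were lower in senescent cells, with a median log2 fold change of -2.42 against 0.01 over all 13847 genes tested. A gene was called where the adjusted p was under 0.1 and the fold over 1.5, on the log2 scale of the normalised read count plus 1. By this rule limma called 56 of 56 members lower and 0 higher, edgeR and DESeq2 called the same numbers, and 0 members had a positive change at an unadjusted p under 0.05, while 11.8% of all genes tested were called lower and 11.6% higher. Of the 56, 54 fell more than 2-fold (5.84% of all genes tested), 42 more than 4-fold (1.63%) and 8 more than 8-fold (0.224%), the last being BUB1, ESPL1, UBE2C, KIF2C, AURKB, SPC25, CENPU and CDC20. Scaling every library to the same total, in place of the deposited size factors, moved the median of all genes from 0.01 to -0.09 and the calls over all genes from 1632 lower and 1605 higher to 2092 lower and 1226 higher, and left the members at 56 lower. Log2 values of genes with few reads depend on the pseudocount of 1. In RNA from whole cultures, fewer cells in mitosis and less of each RNA per cell cannot be told apart.

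**Figure D1:**
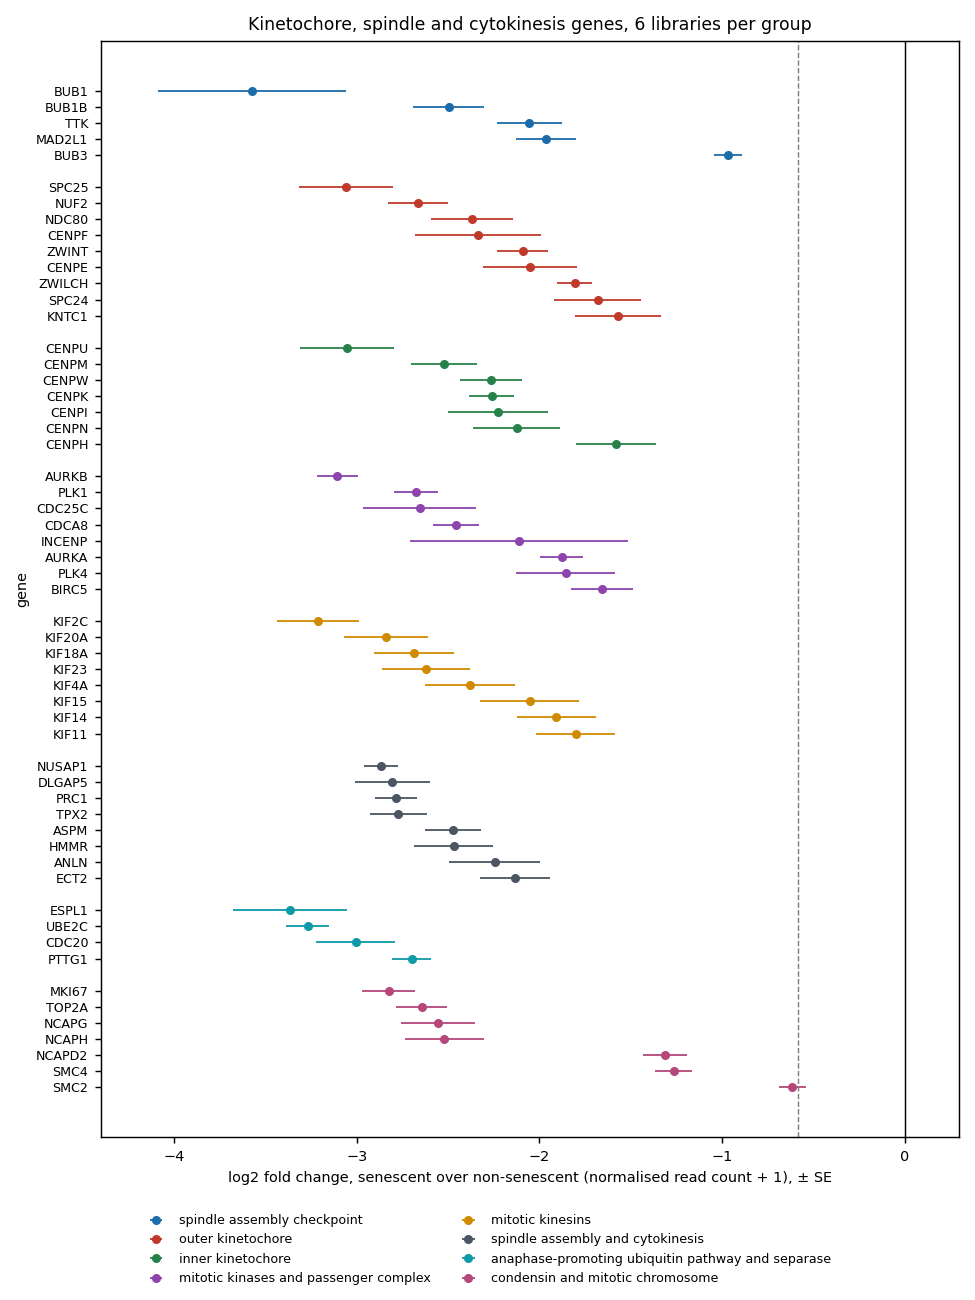
Log2 fold change (senescent over non-senescent, normalised read count plus 1) of each of the 56 members with its standard error, coloured by role, 6 libraries per group. The values run from -3.57 for BUB1 to -0.62 for SMC2, all left of 0, and the dashed line marks a 1.5-fold fall.

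Summed over the members, the non-senescent libraries held 18690 to 20764 normalised reads (median 19951). The 2 senescent libraries of batch A held 3612 and 3627, and the 4 of batch B held 5433, 5393, 5507 and 4602. No senescent library came near a non-senescent one, and 23.7% of the summed level was left, or 22.1% when the members were taken as reads per 1000000 of each library's own reads, or ppm (2816 ± 151 against 623 ± 130, SD, n = 6 per group). Within batches, 19.2% was left in A and 25.9% in B. Each of the 6 senescent libraries had all 56 members below the mean of its batch's non-senescent libraries. Their median distances were -2.79 and -2.71 on the log2 scale in batch A and lay between -2.35 and -2.16 in batch B.

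Taken gene by gene, the groups did not overlap in either batch for 55 members, the exception being INCENP, against 11.9% of all genes tested with separated and lower groups in both batches. Over all 12 libraries together the groups stood apart for 52 members, against 5.57% of all genes. KNTC1, CENPF, CENPK and INCENP overlapped there. Ranked by the size of the fall, 24 of the 100 most strongly falling genes and 52 of the first 500 were members, and only NCAPD2, SMC4, BUB3 and SMC2 lay outside. The size of the fall and the read count of a member in control cells were hardly related: across the 56 genes, which share libraries and depth, Spearman's rho between the log2 level in non-senescent cells and the log2 fold change was -0.12.

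The spindle assembly checkpoint reads unattached kinetochores, and its genes had a median log2 fold change of -2.05. BUB1, the kinase that docks checkpoint proteins at the kinetochore (chr2:110637528-110678063, GRCh38, minus strand), had the most negative limma value of the members. Its normalised read count was 81.3 to 136 (median 101) in non-senescent libraries. The senescent libraries held 10.8, 8.46, 18.2, 11.5, 13.7 and 0. The change of -3.57 ± 0.51 on the log2 scale (± SE, adjusted p = 3.05e-05) rests on 0 to 24 recovered reads per senescent library, so its error is among the largest here. Without the fourth senescent library of batch B, which held 0 BUB1 reads, it was -2.95, and ESPL1 at -3.44 was then the lowest member. The log2 fold change of BUB1 was -3.31 by edgeR and -3.32 by DESeq2, behind the log2 fold change of ESPL1 at -3.39 and -3.40, and UBE2C was the lowest with a pseudocount of 8 or batch A alone. BUB3, the small WD40 partner that binds BUB1 and BUBR1, had the highest mean read count of the checkpoint genes and changed least. Its counts went from 657 to 806 (median 682) down to 314 to 387 (median 368), with no overlap, and 51.0% was left (log2 fold change -0.97 ± 0.08, adjusted p = 2.29e-08). BUB1B, which encodes the checkpoint subunit BUBR1, fell by 2.50 on the log2 scale. TTK, the MPS1 kinase that starts the signal, and MAD2L1, the protein that changes fold to hold CDC20, fell by 2.05 and 1.96.

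Outer kinetochore genes build the microtubule-binding face of the kinetochore and had a median of -2.09. SPC25, a subunit of the NDC80 complex (chr2:168834132-168913371, minus strand), lost most. It stood at 354 to 687 (median 438) in non-senescent cells and at 118 and 98.4 in the senescent libraries of batch A, and 32.7, 89.2, 42.3 and 18.7 in those of batch B. The log2 fold change was -3.06 ± 0.26 (adjusted p = 6.03e-08). The other NDC80 complex genes followed in the order NUF2 at -2.67, NDC80 at -2.37 and SPC24 at -1.68. Members of the complex were not tested against each other.

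CENPF, a large nuclear protein that reaches the outer kinetochore in G2, had the highest mean read count of this role. Non-senescent libraries held 743 and 815 in batch A and 1363, 1500, 2326 and 1521 in batch B. Senescent libraries held 76.8 and 85.8 in A and 659, 554, 811 and 131 in B. The groups were apart in each batch and overlapped across them, since the 811 of a batch B senescent library exceeded the 743 of a batch A control (log2 fold change -2.34 ± 0.34, adjusted p = 4.10e-05). KNTC1, the ROD subunit of the complex that brings dynein to kinetochores, had the smallest change of the role, -1.57 ± 0.24. Its level in control cells differed by batch, at 136 and 153 in A against 28.6 to 41.3 in B. ZWINT, which links that complex to the kinetochore, ZWILCH, another of its subunits, and CENPE, a kinetochore kinesin, fell by 2.09, 1.81 and 2.05.

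Genes of the inner kinetochore, whose products form the constitutive centromere-associated network on CENP-A chromatin, had a median of -2.26. CENPU, which recruits PLK1 (chr4:184694085-184734130, minus strand), fell furthest. Its 6 control values lay between 63.4 and 86.2 (median 73.4), and its senescent values were 8.08, 6.04, 4.85, 8.40, 6.87 and 17.4. The log2 fold change was -3.05 ± 0.26 (adjusted p = 5.72e-08), with 11.7% left. CENPK, a partner of CENPH, had the highest mean of the role and the strongest batch dependence of level. Control counts were 110 and 132 in A and 687 to 900 in B, and senescent counts were 31.9 and 33.2 in A and 125 to 162 in B. It therefore overlapped across batches and was separate in each (log2 fold change -2.26 ± 0.12, adjusted p = 2.84e-10). CENPH itself changed least, from 57.0 to 100.5 (median 71.6) to 13.0 and 12.7 in the senescent libraries of A and 30.9 to 33.6 in those of B, a log2 fold change of -1.58 ± 0.22 (adjusted p = 2.25e-05). The remaining members, CENPM, CENPW, CENPI and CENPN, lay between -2.52 and -2.13.

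The mitotic kinases and the chromosomal passenger complex, which corrects faulty attachments and later marks the division plane, had a median of -2.28. AURKB, the catalytic subunit of the passenger complex (chr17:8204733-8210600, minus strand), had both the largest fall and the highest mean. Control libraries held 803 and 891 in batch A and 2335 to 2726 in batch B. Senescent libraries held 88.9 and 82.7 in A and 263 to 434 in B. The log2 fold changes were -3.29 in A and -3.02 in B although the starting levels differed, and -3.11 ± 0.11 over both (adjusted p = 2.34e-12). Its complex partners stood at -2.46 for CDCA8 (borealin) and -1.66 for BIRC5 (survivin). INCENP, the scaffold of the complex, was measured at 9.23 ± 7.55 (SD, n = 6) normalised reads in controls and 1.80 ± 2.94 in senescent libraries, of which 3 held 0 reads, and passed the filter only through its control level, so its -2.11 ± 0.60 (adjusted p = 0.00978) adds little. PLK1, the kinase of mitotic entry and spindle poles, and CDC25C, the phosphatase that activates CDK1, stood at -2.67 and -2.66. AURKA, which matures centrosomes, and PLK4, which duplicates centrioles, fell by 1.88 and 1.86.

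**Figure D2:**
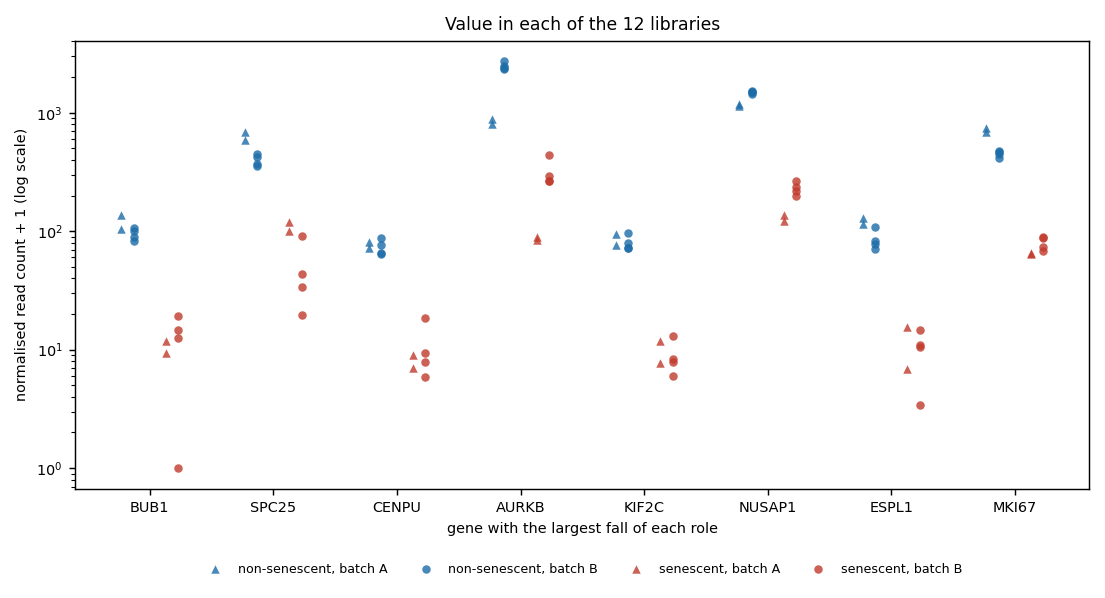
Normalised read count plus 1 (log axis) in each of the 12 libraries for the member with the largest fall in each of the 8 roles, with triangles for batch A and circles for batch B. Blue non-senescent points stand above the red senescent points of the same gene in every case, and AURKB shows the gap between batches in both groups.

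Mitotic kinesins move chromosomes and slide or shorten microtubules, and their median was -2.50. KIF2C, the depolymerase MCAK that frees wrongly attached microtubules (chr1:44739818-44767767, plus strand), fell most. It stood at 70.8 to 96.4 (median 76.9) in controls and at 10.8, 6.64, 12.1, 7.35, 6.87 and 4.98 in senescent libraries. The log2 fold change was -3.21 ± 0.23 (adjusted p = 6.17e-09). KIF20A, which carries the passenger complex to the central spindle, had the highest mean read count of the kinesins. Its counts of 153 to 324 (median 234) fell to 17.2 to 64.2 (median 27.5), a log2 fold change of -2.84 ± 0.23 (adjusted p = 4.08e-08). Its 3′ end overlaps CDC23 on the opposite strand, which had 1235 and 1568 recovered reads in the 2 groups, and the sources do not state whether counting used the strand. KIF11, the Eg5 motor that pushes spindle poles apart, changed least. It went from 63.2 to 128 (median 91.4) down to 18.0 to 36.1 (median 25.7), and its log2 fold change was -1.80 ± 0.22 (adjusted p = 3.94e-06). KIF18A, which sets the length of spindle fibres, KIF23, the motor of the centralspindlin complex, and KIF4A, which limits the midzone, lay at -2.69, -2.62 and -2.38.

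Spindle assembly and cytokinesis genes fell within a narrow range, from -2.87 to -2.13, with a median of -2.62. NUSAP1, a microtubule bundler near chromosomes (chr15:41320794-41381050, plus strand), led both by fall and by mean. Control values were 1143 and 1184 in A and 1432 to 1526 in B, against 120 and 136 in the senescent libraries of A and 196 to 262 in those of B. The log2 fold change of -2.87 ± 0.10 had the smallest adjusted p of the role, 1.26e-12. Close to it were DLGAP5, which stabilises kinetochore fibres, at -2.80, PRC1, which bundles the central spindle, at -2.78, and TPX2, which activates AURKA and nucleates microtubules, at -2.77. ECT2, the exchange factor that switches on RhoA at the division plane, changed least. Its values of 67.2 to 149 (median 98.8) dropped to 12.5 to 31.0 (median 25.5), a log2 fold change of -2.13 ± 0.19 (adjusted p = 1.34e-07). ASPM at the spindle pole, HMMR on spindle microtubules and ANLN, which ties the contractile ring together, lay at -2.47, -2.47 and -2.25.

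The 4 genes that control the start of anaphase had the lowest role median, -3.14. ESPL1 encodes separase, the protease that cuts cohesin (chr12:53268299-53293638, plus strand), and its promoter stretch above holds both elements. Controls held 70.2 to 127 (median 94.7) normalised reads and senescent libraries 5.84, 14.5, 2.42, 9.45, 13.7 and 9.96. Only 9.68% was left, the lowest share of any member (log2 fold change -3.36 ± 0.31, adjusted p = 1.91e-07). UBE2C, the ubiquitin-conjugating enzyme that starts chains for the anaphase-promoting complex, had the highest mean. Its 689 to 916 (median 809) fell to 59.3 to 111 (median 86.8), a log2 fold change of -3.27 ± 0.12 (adjusted p = 2.34e-12). CDC20, the activator of the complex, fell by 3.01. PTTG1, which encodes the securin that holds separase inactive, changed least of the 4. It went from 342 to 635 (median 440.5) to 58.5 to 85.2 (median 69.0), a log2 fold change of -2.70 ± 0.11 (adjusted p = 4.45e-12).

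Condensin and mitotic chromosome genes were uneven, with a median of -2.52 and a range from -2.83 to -0.62. TOP2A, which untangles sister chromatids, fell from 847 to 1542 (median 903) to 147 to 211 (median 157), a log2 fold change of -2.64 ± 0.14. The regulatory subunits of condensin I, NCAPG and NCAPH, stood at -2.56 and -2.52, and NCAPD2 at -1.31. SMC4 and SMC2, the ATPase pair shared by both condensins, changed least of the role. SMC4 had control values of 1220 and 1051 in A and 1464 to 1624 in B, against 352 and 339 and then 708 to 810 in senescent libraries (log2 fold change -1.27 ± 0.10). SMC2 (chr9:104094260-104141419, plus strand) went from 1080 to 1172 (median 1130) to 634 to 891 (median 727), and 65.6% was left. It had the smallest change of all 56 members (-0.62 ± 0.07, adjusted p = 3.53e-06), and its fold lay just past the 1.5-fold limit. The call was lost with batch B alone (-0.54) and without the second control (-0.58) or the second senescent library of batch A (-0.58). NCAPD2, SMC4 and SMC2 thus kept 40.5% to 65.6%, and the other 4 genes kept 13.7% to 17.3%. MKI67, which coats mitotic chromosomes, was the lowest of the role at -2.83 ± 0.14 (adjusted p = 1.26e-10).

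The fall was deeper in batch A for 45 members and in batch B for 11, with medians of -2.80 and -2.29. The difference between batches, tested as an interaction, was called for 6 members at an adjusted p under 0.1, against 4.21% of all genes tested, and all 6 fell more in batch A. CENPE had the widest gap, with -3.12 ± 0.32 in A and -1.52 ± 0.23 in B (difference 1.60 ± 0.39, adjusted p = 0.0454). Control libraries held CENPE at 138 and 181 in A and 106 to 216 in B, and the senescent ones held 20.7 and 14.5 in A and 45.8 to 70.3 in B. KIF14, a kinesin of the midbody, had -2.72 in A and -1.50 in B (difference 1.22 ± 0.36, adjusted p = 0.0955), with senescent values of 18.9 and 19.3 in A and 60.6 to 73.5 in B. BIRC5 had -2.33 and -1.32 (difference 1.01 ± 0.27, adjusted p = 0.0645), with senescent values of 43.5 and 30.8 in A and 83.6 to 88.5 in B. In both genes every senescent library of B stood above those of A. MKI67, TOP2A and SMC4 had -3.45, -3.25 and -1.71 in A and -2.51, -2.34 and -1.04 in B. Their differences were 0.94 ± 0.20, 0.91 ± 0.19 and 0.67 ± 0.13, with adjusted p of 0.0220, 0.0190 and 0.0138. For MKI67 and TOP2A the control level was the higher one in A (735 and 688 against 411 to 472 for MKI67), and for SMC4 the senescent level was the lower one. These calls rest on batch A, with 2 libraries per group: leaving out any 1 of its 4 libraries left 1 to 3 of the 6, as 2 without the first control, 1 without the second, 3 without the first senescent library and 2 without the second. Across the 56 genes the log2 fold changes of the batches, which share no library, had a Pearson's r of 0.65 and a Spearman's rho of 0.59.

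**Figure D3:**
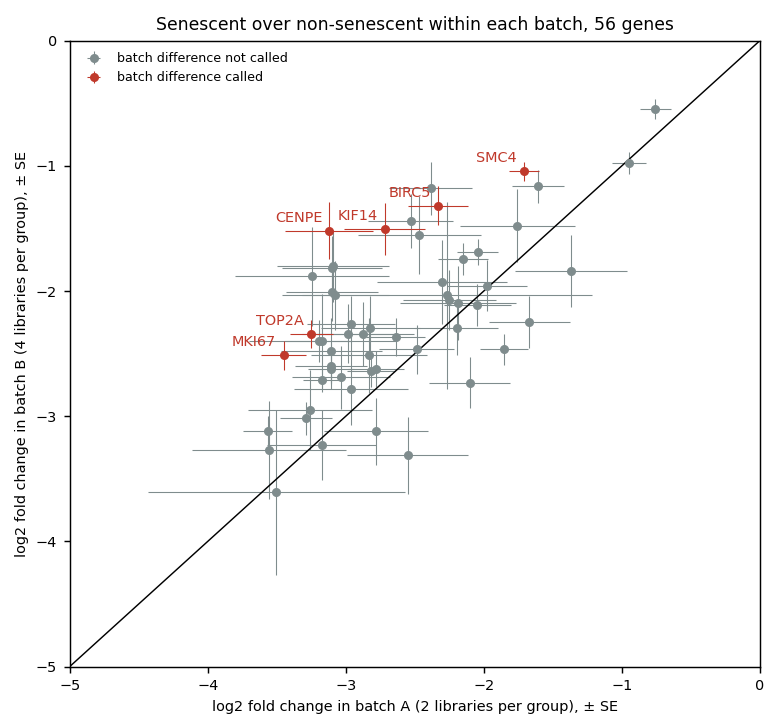
Log2 fold change in batch A (2 libraries per group, horizontal) against batch B (4 per group, vertical) for the 56 members with standard errors, and the line of equal change. The 6 members with a called batch difference are red and lie above the line, and 45 of 56 fell more in batch A.

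Levels in the control libraries also differed by batch. The batch A mean was over 2-fold above that of batch B for 5 members (KNTC1, ANLN, KIF4A, CENPI and NCAPG) and over 2-fold below it for 5 (CENPK, AURKB, CENPF, PLK1 and the low-count HMMR), and within 2-fold for the other 46. CENPK had the widest gap, 121 against 789. All 10 of these genes were called lower within the fit that holds a batch term, and each of their groups stood apart within both batches.

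Libraries held 4672924 to 17106776 recovered reads, and batch A was the deeper, at 8873569 or more against at most 7063264 in batch B. One count of reads is not known to be a molecule, so a limit of 3 reads, 0.175 to 0.642 ppm, covers counting error only. Read counts of replicates differed beyond sampling noise in every pair, so no library was a copy of another, and all were counted as replicates. Separate preparations of the same RNA could also differ in this way, so the check cannot tell them from separate cultures. TERT reads ranged from 47.7 to 137 in control and 78.5 to 136 in senescent libraries; whether they come from the endogenous or the introduced gene was not tested, so they do not check the removal. Of 12 beta cell markers 4 were called higher (INS, IAPP, PDX1 and MAFA) and 1 lower (PCSK1), and their summed level, most of it CHGA, which was not called (log2 fold change 0.20), was 129.6% of that in controls. All 3 delta cell markers were called lower, and of the duct markers KRT19 alone was tested and was called lower. The log2 fold changes in batches A and B were -1.24 and -0.35 for SST, -1.99 and -0.36 for LEPR, and -0.78 and -0.71 for HHEX. LEPR overlapped between the groups in B, and the batch difference of SST had an interaction adjusted p of 0.00075 in limma. Over all genes tested, 11.8% were called lower and 11.6% higher. Of 5 alpha cell markers TTR was called higher and GCG lower, and of the acinar markers CPA1 alone was tested and was called higher. Of the leukocyte markers PTPRC was called lower, from a mean of 13.5 to 3.26 normalised reads (log2 fold change -1.58, adjusted p = 0.00720). Its log2 fold change was -0.34 in batch A, where the groups overlapped, and -2.20 in B. The senescent libraries together held 26 recovered reads of PTPRC. CD68 was also tested and was not called (log2 fold change 0.06). The part of these shifts in the members' fall was not tested. PDGFRB, VWF and CD3E were at 0 reads, and the summed stromal, endothelial and leukocyte markers reached at most 18.4, 3.48 and 7.49 ppm.

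Genes around the members behaved by group. From lists of 156 further genes of these pathways, 154 were tested, 62 were called lower (40.3%) and 7 higher, against 11.8% and 11.6% of all genes tested, and the median log2 fold change was -0.41. Other kinetochore and centromere genes were called lower in 20 of 30 and higher in 0. SKA3, which helps the NDC80 complex follow a shrinking microtubule, had the largest fall, at -3.09 ± 0.26, and CENPA, HJURP and KNL1, the centromeric histone, its chaperone and the platform of the outer kinetochore, stood at -2.66, -2.73 and -2.46. CENPC and CENPT, which link the centromere to the outer kinetochore, had -0.42 and -0.33 and were not called, nor was CLASP2, a microtubule plus-end protein, at 0.40. Other spindle and cytokinesis genes were called lower in 21 of 25, led by CEP55, which recruits the abscission machinery, at -3.11 ± 0.24. Not called in that list were CKAP5 at -0.47, NUMA1 at -0.03, HAUS8 at 0.24 and SAPCD2 at 0.55. All 3 subunits particular to condensin II were called lower, from -1.74 for NCAPG2 to -1.14 for NCAPH2.

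In the lists of the anaphase-promoting complex, cohesin and ESCRT, most genes were not called, as were 10610 of all 13847 genes tested. Of 16 genes listed for the anaphase-promoting complex, 3 were called lower, which is 18.8% against the 11.8% of all genes tested. They were its ubiquitin-conjugating enzyme UBE2S at -1.72 and the subunits ANAPC11 at -1.07 and ANAPC15 at -0.74. The list median was -0.05, while the members CDC20, the complex's activator, and UBE2C, another of its enzymes, fell over 8-fold. The largest positive value was 0.38 for ANAPC13, which was not called. Of 13 cohesin genes, 3 were called lower: sororin (CDCA5) at -2.55, the acetyltransferase ESCO2 at -1.92 and STAG1 at -0.68. That share, 23.1%, is likewise read against the 11.8%, and with lists this short neither count is taken as a result about its list. The ring genes SMC1A, SMC3 and RAD21 had -0.49, -0.24 and -0.11, and the loader NIPBL 0.32. Of the 15 ESCRT genes, which cut the midbody at the end of cytokinesis, limma, edgeR and DESeq2 each called 0. At an unadjusted p under 0.05 in limma, 3 were lower and 5 higher, and the log2 fold changes ranged from -0.47 for CHMP2B to 0.59 for CHMP6.

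Motors of vesicle and organelle transport held no fall like that of the mitotic kinesins. Of 18 tested interphase kinesin genes, limma called 0 lower and 5 higher, against 11.8% and 11.6% of all genes tested, edgeR and DESeq2 also called 0 lower, and 0 were lower at an unadjusted p under 0.05. KIFAP3 and KIF3A, of the kinesin-2 motor, rose by 1.09 ± 0.12 and 0.75 ± 0.13, KIF5C by 0.97 ± 0.08, KIF13A by 0.73 ± 0.13 and KIF21A by 0.65 ± 0.11. The last call was lost without the first control library of batch B (0.55). KIF21B had the most negative value, -0.48, and was not called; KIF17 and KIF26A were below the filter. Of 18 γ-tubulin and centrosome genes, 7 were called lower, led by STIL, needed for centriole assembly, at -1.66 and TUBG1, γ-tubulin itself, at -1.63. In the same list AKAP9, a scaffold at the Golgi and centrosome, rose by 0.96 ± 0.12, and TUBGCP6 was called higher at 0.64 ± 0.28 with an adjusted p of 0.0846, a call that was lost on leaving out any 1 of 9 of the 12 libraries. Among 16 transcription factor genes of the mitotic programme 5 were called lower (31.2%, against 11.8% of all genes tested). MYBL2, the B-MYB factor, had -3.29 ± 0.30 and FOXM1 -2.53 ± 0.16, followed by RBL1 at -1.18, LIN54 at -0.99 and TFDP1 at -0.65. The NF-Y subunits NFYA, NFYB and NFYC had 0.33, -0.41 and 0.00 and were not called.

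**Figure D4:**
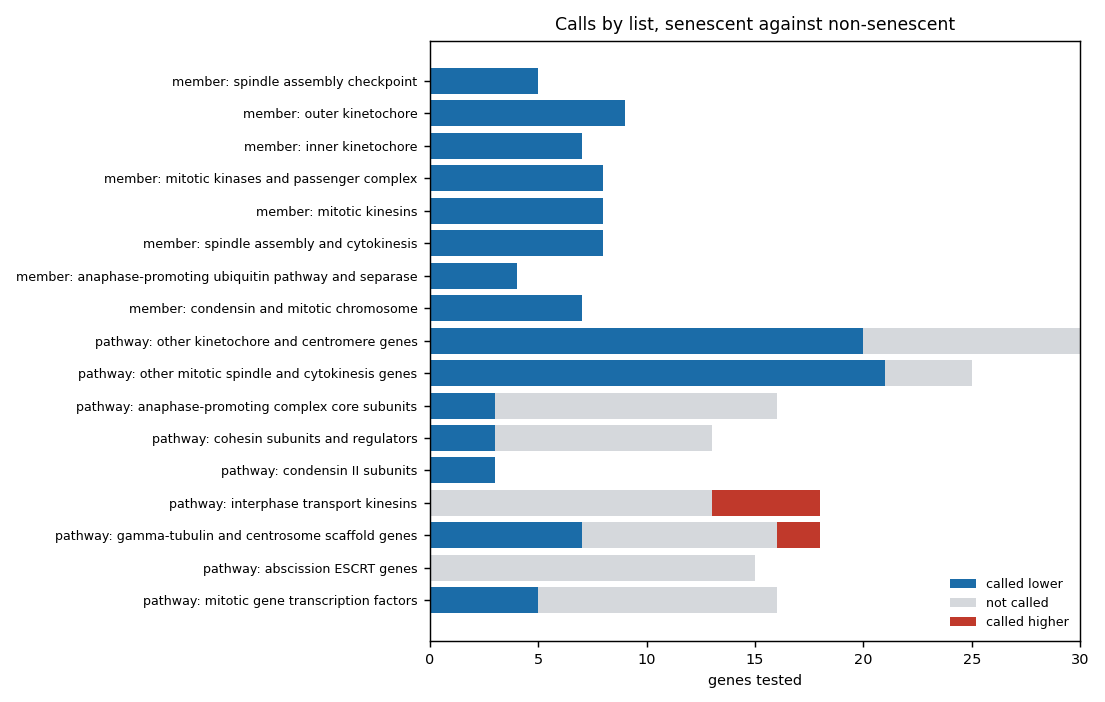
Number of tested genes called lower (blue), not called (grey) and called higher (red) in each of the 8 member roles and the 9 further pathway lists. All member bars are blue, 20 of 30 and 21 of 25 genes of the first 2 pathway lists are blue, and red appears in the interphase kinesin and centrosome lists.

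Returning to the promoter letters, searched on both strands, 34 of the 47 member windows held a CCAAT box (72.3%), against 36.7% of the windows of 10388 tested genes and 35.7% of all 27305 genes in the table. TTTGAA or its reverse complement was in 33 of 47 (70.2%), against 9.66% and 15.4%. Both elements were in 24 (51.1%), against 3.99% and 6.08%. At least 2 CCAAT boxes were in 20 (42.6%), against 13.5% and 11.3%. E2F-type letters (TTTGGCGC, TTTCCCGC, TTTGGCGG or TTTCGCGC) were in 6 (12.8%), against 5.46% and 3.43%. Of the 42 places with TTTGAA in the members, 71.4% lay within 50 bases of the start, against 27.0% of 4941 such places over all genes. With every listed window of a gene taken in place of the first, the shares of CCAAT and TTTGAA were 76.6% and 72.3% in members and 43.5% and 13.8% in tested genes.

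Inside the gene set, members with and without these letters had close medians. Members with TTTGAA had a median of -2.46 (33 genes) and those without -2.59 (14 genes); members with and without CCAAT had -2.50 and -2.25. ESPL1, which kept the lowest share, holds TTTGAA, and so does SMC2, which kept the highest, across its start. Among the further pathway genes, TTTGAA was in 20 of 52 windows of genes called lower (38.5%) and in 16 of 79 of those not called lower (20.3%). These are matches of letters in a fixed window, not measured binding. Which start the cells use was not measured, so members counted as without the letters may hold them near another start. The close medians therefore do not compare true presence with true absence.

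**Figure D5:**
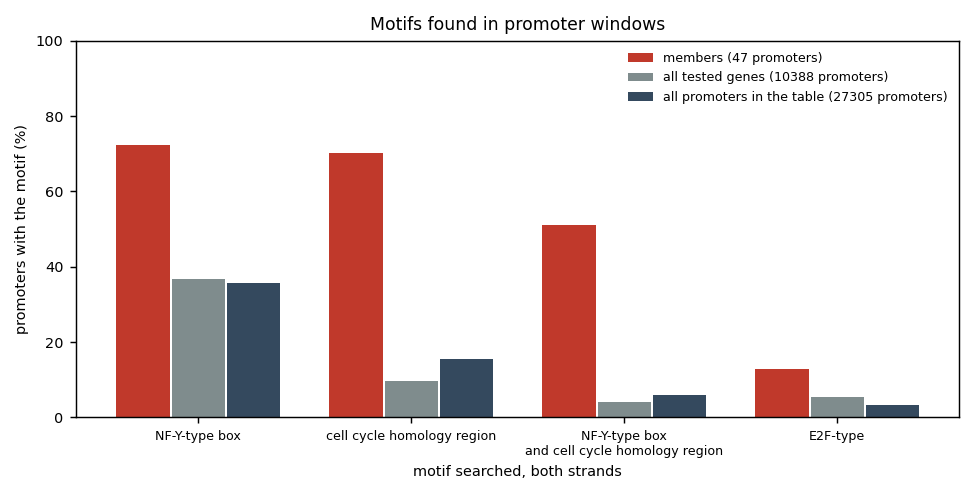
Share of promoter windows (percent, vertical) that hold each motif on either strand, in 47 members, 10388 tested genes and all 27305 genes. The member bars stand at 72.3%, 70.2%, 51.1% and 12.8%, and the gap to the other bars is widest for the cell cycle homology region.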

How the data were processed

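The deposited table holds, per gene and library, a normalised read count (unit signal) that the authors made by trimming 3′ reads with Cutadapt, quantifying them on GRCh38 with Salmon 0.13.1 and dividing by DESeq2 size factors. The transcript annotation, strand setting and use of molecular identifiers are not given in the sources used here. The authors' own comparison fills 6 further deposited columns (a mean signal, a log2 fold change and its error, a test score and 2 kinds of p-value), which were not used. Dividing by the value of 1 read gave whole reads for 100.0% of values above 0 (within 0.01 reads), so totals per library and count tests could be computed. Depth was 4672924 to 17106776 reads per library.

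Values were tested as log2(normalised read count + 1) with limma 3.58.1 (intensity trend, R 4.3.3), with group and batch as terms in all 12 libraries, in genes with a mean of at least 5. Adjusted p-values are Benjamini-Hochberg over all 13847 genes tested, two-sided. The batch difference was a batch by group term in the same tool. edgeR 4.0.16 and DESeq2 1.42.0 on recovered reads, other pseudocounts, filters, scalings and designs, and leaving out each library were alternatives. The scripts were tested on simulated data, drawn with the same dispersion for every gene and with as many rises as falls. Real genes differ in their spread, so the rates below need not hold for them. With 200 of 13847 genes shifted by 1.5 on the log2 scale, the group comparison called 96.5% of them and 98.5% of its calls were right, and the batch comparison recovered 69.0% with 97.2% right; with no gene changed, 0 were called.

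Groups, replicate names and batch letters came from the titles. Replicate names are shared between groups, and same-named libraries did not deviate together (correlations -0.05 to 0.02), so the main test has no block. In each role the members with the largest fall, the highest mean and the smallest change are given with values per library, as is every member with a called batch difference; of each pathway list the largest fall, the largest rise and every gene called higher are given, and further genes were named after their values were seen. The members and all lists were chosen with earlier results of these data known. Gene positions are from GENCODE v44 and promoter windows from RefSeq, GRCh38.p14; for genes with several windows the first was used. A mean read count ranks genes by 3′ reads and was not adjusted for length. One result is not reported here.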

Additional observations from a re-analysis of the deposited data

Results flagged for a closer look

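The response differed between batches in 6 members by the test of the difference itself. The log2 fold change of batch B exceeded that of batch A by 1.60 for CENPE, 1.01 for BIRC5, 1.22 for KIF14, 0.67 for SMC4, 0.91 for TOP2A and 0.94 for MKI67, with adjusted p from 0.0138 to 0.0955. All 6 are smaller falls in batch B. Batch A was the deeper batch. With every library thinned to the smallest total, 6 members were called again, of which 4 were among these 6, and BIRC5 and MKI67 were not.

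In 3 of 112 groups of 6 libraries (2.68%) 1 library stood far from the others by Dixon's test, and chance alone gives about 1 in 20. CENPU read 17.4 in the fourth senescent library of batch B, against 4.85 to 8.40 in the other senescent libraries. INCENP read 7.47 in the same library, against 0 to 2.42. KIF4A read 12.1 in the first senescent library of batch B, against 27.3 to 32.8. None of these values reached the lowest control value of its gene except that of INCENP.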

How the results depend on the processing

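Over 26 alternative settings, between 54 and 56 members were called lower and 0 higher. There were 54 with a fold change over 2, 55 with batch B alone, and 55 to 56 on leaving out 1 library. With a mean of at least 20, INCENP was not tested and all 55 members tested were called lower. All members tested kept a negative log2 fold change in each, and their median ran from -2.80 (batch A alone) to -2.13 (pseudocount 8). The replicate block, which would treat same-named libraries as paired, gave 56 lower and 0 higher, and 63 lower and 6 higher in the pathway lists; it ended the call of TUBGCP6 (adjusted p = 0.129) and no other call among the members and the pathway genes chosen by the naming rule. Same-named libraries correlated best with each other in 0 of 6 cases. The 2 cases of batch A are 1 comparison, because deviations from the mean of 2 libraries mirror each other. Members differing between batches numbered 1 to 7 on leaving out 1 library, against 6. The pathway genes called higher, 7 in the main comparison, numbered 4 with no batch term, 11 with batch A alone, 1 with a fold change over 2, and 6 to 8 on leaving out 1 library. The causes of these changes were not tested. Depth limits the remaining level of members with few senescent reads, such as BUB1 and INCENP.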
